A study of Mus musculus with 8 samples.

Results

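The protocadherins of the postnatal molar mesenchyme were described from RNA-sequencing of control and *Osr2-Cre;Ezh2fl/fl* molars. Every gene whose symbol begins with Pcdh was taken, which gave 64 of the 20926 genes with values. Of these, 9 belong to the alpha cluster, 21 to the beta cluster and 22 to the gamma cluster, so that 52 are clustered genes, and the other 12 are non-clustered genes. The samples were 8 libraries of total RNA, 4 from control mice (Ezh2fl/fl) and 4 from *Osr2-Cre;Ezh2fl/fl* mice (written Osr2KI-Cre;Ezh2fl/fl in the sample labels). The labels give the strain as C57BL/6, whereas the study's methods describe a mixed background, and all mice were 3 days old. RNA was taken from molars whose epithelium had been removed. Both groups carry the floxed *Ezh2* allele, and the controls are not stated to carry a Cre. By the study's description, the cells in which this Cre acts are those of the tooth mesenchyme and the surrounding bone and not epithelial cells, so other cells in the sample, such as endothelium, nerve or macrophages, may keep *Ezh2*. Ezh2 is a Polycomb methyltransferase whose histone mark, H3K27me3, is found at silent genes, and the comparison asks which transcripts differ in the molar mesenchyme once it is removed.

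Protocadherins are the largest group of cadherin adhesion proteins. In the alpha and gamma clusters, each gene has its own promoter and its own variable exon, which codes for the outer part of the protein and is spliced to constant exons that the whole cluster uses, whereas beta genes have a complete coding exon of their own and no constant exons. Promoter choice in the clusters is directed by CTCF and cohesin, and the proteins give neurons a surface identity by which they recognise their own branches. The C-type genes at the end of the alpha and gamma clusters are expressed more broadly than the others. Non-clustered protocadherins lie apart on several chromosomes, and several of them, such as *Pcdh10* and *Pcdh17*, recruit the WAVE complex, which builds branched actin, to sites of cell contact.

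The deposited values look like read estimates raised by 1 and then scaled within each library, with no gene-length factor. Depth was 48.3 to 68.8 M estimated reads per library, and 1 read corresponded to a value of 0.0129 to 0.0190. Differences were tested with limma on log2(value + 1) across the 14854 genes that reached a value of 1 in 4 or more of the 8 libraries, and fold changes are on that log2 scale. The targeted gene was checked first. In order of library number, *Ezh2* values were 55.0, 38.3, 39.6 and 39.0 for controls, and for *Osr2-Cre;Ezh2fl/fl* molars they were 35.2, 30.1, 23.2 and 36.0. All *Osr2-Cre;Ezh2fl/fl* values lay below all control values, but the difference did not pass the limma test after adjustment (log2 fold change -0.46, SE 0.16, adjusted p = 0.235). All 8 markers of dental mesenchyme passed the filter on low values, with summed values from 11993 to 14373 in control libraries and from 9510.1 to 13279.9 in *Osr2-Cre;Ezh2fl/fl* libraries. Markers of other cells were also measured: the 7 markers of ameloblasts and epithelium summed to between 2220 and 31754 in control libraries and to between 2202 and 13320 in *Osr2-Cre;Ezh2fl/fl* libraries, although the epithelium had been dissected away. In bulk tissue, fewer cells of a type and less RNA per cell cannot be told apart.

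After adjustment over all genes, 3 of the 54 protocadherins tested differed between the groups, all of them non-clustered: *Pcdh10* was upregulated, and *Pcdh17* and *Pcdh7* were downregulated in *Osr2-Cre;Ezh2fl/fl* molars. Across all genes tested, 2.07% passed the same threshold, 1.56% upward and 0.512% downward. None of the 43 clustered genes tested passed it in limma, and none had an unadjusted p under 0.05, which 13.1% of all genes had. Of the 64 protocadherins, 10 were below the filter on low values and were not tested, namely 8 alpha genes, *Pcdhb2* and *Pcdh8*.

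The promoters of the 3 genes that passed the test are shown because CpG-rich promoters are where Polycomb complexes are known to bind, and the letters let the CG content of these promoters be compared. Each window runs from 250 bases before to 50 bases after the transcription start that RefSeq gives, 5′ to 3′ on the gene's own strand, from RefSeq on GRCm38.p6, and capitals mark each CG. The windows lie at chr3:45378148-45378447 (plus strand) for *Pcdh10*, at chr14:84443313-84443612 (plus strand) for *Pcdh17* and at chr5:57717831-57718130 (plus strand) for *Pcdh7*. The RefSeq start of *Pcdh7* lies downstream of the GENCODE start given with its values, so that window is placed later in the gene than the GENCODE start would place it.
Pcdh10: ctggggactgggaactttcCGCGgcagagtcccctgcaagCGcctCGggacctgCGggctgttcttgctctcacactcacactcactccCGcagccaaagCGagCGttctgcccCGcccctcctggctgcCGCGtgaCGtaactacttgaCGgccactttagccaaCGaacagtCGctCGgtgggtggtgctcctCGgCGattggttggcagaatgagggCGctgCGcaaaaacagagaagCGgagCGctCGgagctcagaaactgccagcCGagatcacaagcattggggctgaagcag
Pcdh17: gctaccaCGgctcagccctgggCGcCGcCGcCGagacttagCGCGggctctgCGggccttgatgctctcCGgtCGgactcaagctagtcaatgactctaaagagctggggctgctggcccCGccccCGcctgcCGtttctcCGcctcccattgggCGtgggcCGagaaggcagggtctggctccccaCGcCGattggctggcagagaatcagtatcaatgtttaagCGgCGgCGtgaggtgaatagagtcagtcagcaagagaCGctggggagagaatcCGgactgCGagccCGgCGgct
Pcdh7: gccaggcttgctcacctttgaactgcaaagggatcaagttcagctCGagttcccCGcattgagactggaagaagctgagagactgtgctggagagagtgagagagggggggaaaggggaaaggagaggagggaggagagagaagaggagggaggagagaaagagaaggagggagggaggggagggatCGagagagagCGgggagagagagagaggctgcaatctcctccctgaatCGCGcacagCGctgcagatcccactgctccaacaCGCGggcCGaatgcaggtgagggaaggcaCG

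The *Pcdh10* window holds 24 CG, the *Pcdh17* window 26 and the *Pcdh7* window 11. Over 32851 promoter windows of this length the median was 7 CG and 94.6% held at least 1. At least as many CG as in *Pcdh17* were found in 16.9% of windows, as in *Pcdh10* in 20% and as in *Pcdh7* in 41.4%. A promoter window was found for 9 of the 12 non-clustered genes, and the other genes on the same scale were *Pcdh18* with 23 CG, *Pcdh19* with 18, *Pcdh9* with 18 or 19 by its start site, *Pcdh8* with 14, *Pcdh15* with 8 and *Pcdh20* with 4. These genes, of which *Pcdh8* was not tested and the others did not pass, thus held 4 to 23 CG, a range that overlaps the 11 to 26 of the genes that passed. The *Pcdh15* window begins at 73821617 on chromosome 10, far downstream of its GENCODE start at 73099342, so its 8 CG belong to a later start site. No binding or histone mark was measured in these libraries.

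*Pcdh10* (chromosome 3, 45378398 to 45435623, plus strand, GRCm38) encodes a protocadherin that organises actin at cell contacts and guides axon growth. Controls, in order of library number here and for the genes that follow, had values of 23.3, 17.8, 14.4 and 14.2, and *Osr2-Cre;Ezh2fl/fl* molars had 25.3, 46.0, 35.8 and 47.2. The groups did not overlap, although the first *Osr2-Cre;Ezh2fl/fl* library lay close to the highest control. Mean values were 17.4 ± 4.25 (SD, n = 4) and 38.6 ± 10.2 (SD, n = 4), or 2.21 times the control level. The log2 fold change was 1.09 (SE 0.21), with an adjusted p of 0.0351 in limma, and the two-sided exact permutation test gave 0.0286, the smallest p that 4 libraries against 4 allow. In every alternative the fold change stayed positive, but the adjusted call depended on which library was left out: it held without control library 1 (adjusted p = 0.0252) or without *Osr2-Cre;Ezh2fl/fl* library 1 (0.0118), and was lost without control library 2 (0.0935), 3 (0.131) or 4 (0.102) and without *Osr2-Cre;Ezh2fl/fl* library 2 (0.0994), 3 (0.0776) or 4 (0.0969). The call was also lost in limma with enamel transcripts as a covariate (0.0542) and with the replicate numbers as a block (0.137).

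*Pcdh17* (chromosome 14, 84443563 to 84539002, plus strand, GRCm38), whose protein lets axons of like neurons extend along each other, had values of 26.0, 24.3, 23.2 and 17.4 in control libraries and of 11.2, 16.9, 11.7 and 13.7 in *Osr2-Cre;Ezh2fl/fl* libraries. Every *Osr2-Cre;Ezh2fl/fl* value was below every control value, with control library 4 and *Osr2-Cre;Ezh2fl/fl* library 2 almost touching. The means were 22.7 ± 3.73 and 13.4 ± 2.60 (SD, n = 4 each), and the log2 fold change was -0.72 (SE 0.15, adjusted p = 0.0481 in limma). This call also moved with single libraries: the adjusted p was 0.0955, 0.148 and 0.165 without control library 1, 2 or 3, and 0.0832, 0.106 and 0.112 without *Osr2-Cre;Ezh2fl/fl* library 1, 3 or 4. It was 0.0321 without control library 4 and 0.0343 without *Osr2-Cre;Ezh2fl/fl* library 2. The call was also lost with no filter (0.0536), a filter at a value of 10 (0.0640), voom (0.0549), quantile normalization (0.0532) and *Xist* as a covariate (0.0766). It was lost too with the replicate numbers as a block (0.136).

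*Pcdh7* (chromosome 5, 57717967 to 58133230, plus strand, GRCm38) encodes a protocadherin whose inner tail binds protein phosphatase 1 alpha. Its values were 30.8, 40.7, 38.8 and 34.3 in control libraries and 29.1, 22.4, 22.4 and 24.9 in *Osr2-Cre;Ezh2fl/fl* libraries. Again the groups did not overlap, and the gap between them lay between the libraries numbered 1. The log2 fold change was -0.53 (SE 0.11, adjusted p = 0.0492 in limma), from a mean of 36.2 ± 4.45 to 24.7 ± 3.14 (SD, n = 4 each). Without control library 1 the adjusted p was 0.0378 and without *Osr2-Cre;Ezh2fl/fl* library 1 it was 0.0233. It was 0.151, 0.182 and 0.108 without control library 2, 3 or 4, and 0.130, 0.102 and 0.118 without *Osr2-Cre;Ezh2fl/fl* library 2, 3 or 4. The call was also lost with a pseudocount of 5 (0.0515), no filter (0.0536), a filter at a value of 10 (0.0639), log2 without pseudocount or filter (0.0527) and limma without the trend (0.0546). It was lost too with enamel transcripts as a covariate (0.0858) and with the replicate numbers as a block (0.224). In the annotation the transcript 4932441J04Rik lies on the opposite strand over the start of *Pcdh7* and had values of 0.617 to 1.25, far below those of *Pcdh7*. *Pcdh10* and *Pcdh17* also overlap an antisense transcript each (1700027H10Rik and 9630013A20Rik, not analysed here). Whether counting used strand is not given in the sources used here, so reads of these genes and their antisense partners cannot be told apart.

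**Figure D1:**
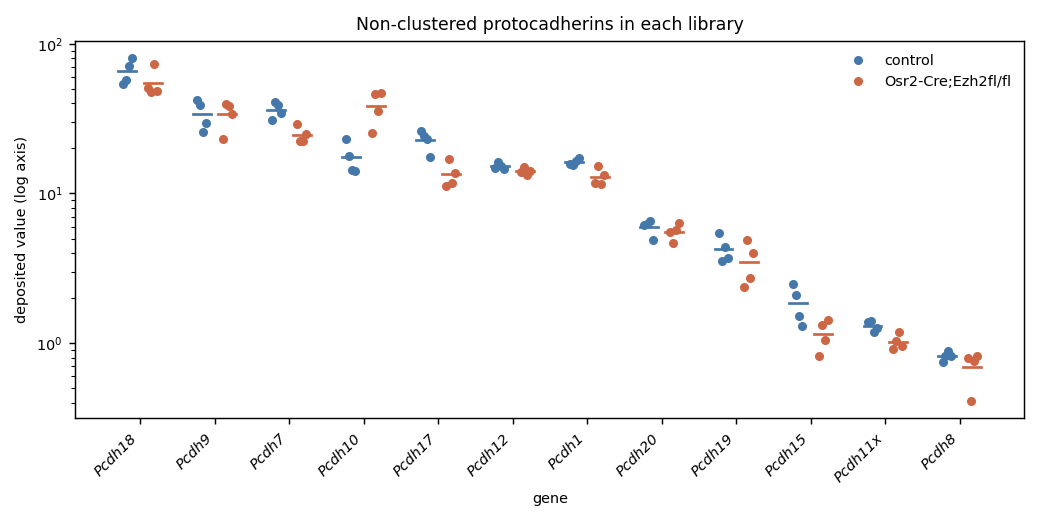
Values of the 12 non-clustered protocadherins in each library on a log axis, ordered by mean value; each point is a library (4 control in blue, 4 *Osr2-Cre;Ezh2fl/fl* in orange) and each bar is the group mean. *Pcdh10* is the gene whose orange points all lie above the blue points (25.3 to 47.2 against 14.2 to 23.3), while for *Pcdh7*, *Pcdh17* and *Pcdh1* all orange points lie below.

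The summed endothelial markers were lower in *Osr2-Cre;Ezh2fl/fl* libraries, although no single marker passed the adjusted test. All 6 endothelial markers (*Pecam1*, *Cdh5*, *Kdr*, *Tek*, *Emcn*, *Tie1*) had negative log2 fold changes, from -0.31 to -0.07, of which 3 had an unadjusted p under 0.05 (*Pecam1* -0.24, *Cdh5* -0.24, *Kdr* -0.31), where 4.87% of all genes had it downward, and none an adjusted p under 0.05 in limma. The other 3 (*Tek*, *Emcn* and *Tie1*) had log2 fold changes of -0.10, -0.07 and -0.12. Their sum was 352 to 401 in control libraries and 315 to 343 in *Osr2-Cre;Ezh2fl/fl* libraries, with no overlap. *Pcdh12*, the protocadherin of endothelial cells, had a log2 fold change of -0.10 (SE 0.08, adjusted p = 0.686), with values of 14.5 to 16.2 in control and 13.3 to 15.0 in *Osr2-Cre;Ezh2fl/fl* libraries. With the mean endothelial level as a covariate, a setting added with the values known, the log2 fold change was 0.52 for *Pcdh10*, -0.19 for *Pcdh7* and -0.86 for *Pcdh17*, and none passed after adjustment (adjusted p = 0.787, 0.798 and 0.530). Under that covariate 0.0943% of all genes passed. As the marker level separates the groups, its part and that of the genotype cannot be told apart.

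None of the remaining non-clustered genes passed the adjusted test in limma. Of the 11 tested, 10 had a negative log2 fold change (median -0.25), against 6822 of all 14854 genes (median 0.01). The number was 8 of 11 with *Osr2-Cre;Ezh2fl/fl* libraries 1 and 2 left out, and 9 of 11 without control library 1, control library 2 or *Osr2-Cre;Ezh2fl/fl* library 1. An unadjusted p under 0.05 was found for 1 gene upward and 4 downward, where 8.27% and 4.87% of all genes had it. Groups without overlap were found for 4 of the 11, *Pcdh10* upward and *Pcdh7*, *Pcdh17* and *Pcdh1* downward, where 8.53% of all genes had such groups (5.76% upward and 2.77% downward). *Pcdh1*, known from the airway epithelium, had values of 15.8, 15.6, 16.4 and 17.2 in control and 11.8, 15.3, 11.5 and 13.2 in *Osr2-Cre;Ezh2fl/fl* libraries. Its log2 fold change was -0.31 (SE 0.10), with an unadjusted p of 0.0116 and an adjusted p of 0.188 in limma. *Pcdh15*, which forms the tip links of hair cells in the inner ear, had values of 2.48, 2.11, 1.51 and 1.30 in control and 0.815, 1.32, 1.05 and 1.42 in *Osr2-Cre;Ezh2fl/fl* libraries, so its groups overlapped. It rested on 42 to 156 estimated reads a library, and its log2 fold change was -0.40 (SE 0.15), with an unadjusted p of 0.0289 and an adjusted p of 0.295 in limma.

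*Pcdh18* and *Pcdh9* were the non-clustered genes with the highest values. *Pcdh18* had 53.6, 57.1, 70.7 and 80.5 in control and 50.3, 47.3, 73.7 and 48.4 in *Osr2-Cre;Ezh2fl/fl* libraries. The third *Osr2-Cre;Ezh2fl/fl* library lay with the higher controls and the other three below them all, and the log2 fold change was -0.26 (SE 0.17, adjusted p = 0.621 in limma). The enamel transcript *Amelx* was high in the same libraries, with 349, 1377, 9733 and 16250.4 in control and 807, 376, 7818 and 316 in *Osr2-Cre;Ezh2fl/fl* libraries. With the enamel transcripts (*Amelx*, *Enam* and *Ambn*, mean log2 level) entered as covariate, the log2 fold change of *Pcdh18* was -0.02 (SE 0.07, adjusted p = 0.915 in limma). *Pcdh9* had 41.9, 38.9, 25.8 and 29.4 in control and 23.2, 39.6, 38.4 and 34.0 in *Osr2-Cre;Ezh2fl/fl* libraries. Its groups overlapped almost whole, with a log2 fold change of -0.01 (SE 0.20). For the others, the log2 fold change was -0.25 (SE 0.19) for *Pcdh19*, the gene behind an X-linked epilepsy of females, -0.19 (SE 0.09) for *Pcdh11x* and -0.08 (SE 0.12) for *Pcdh20*. *Pcdh8*, the paraxial protocadherin of somite formation, was below the filter with values of 0.409 to 0.893, or 26 to 63 estimated reads.

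**Figure D2:**
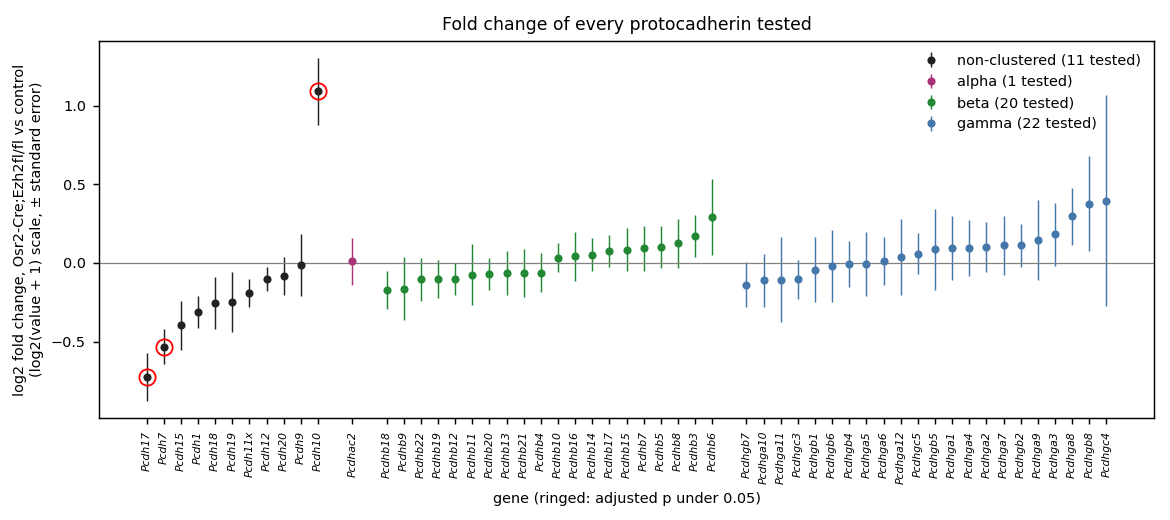
Log2 fold change of each of the 54 protocadherins tested, *Osr2-Cre;Ezh2fl/fl* against control, with its standard error as a bar (4 libraries a group); colours mark the class and rings mark an adjusted p under 0.05. The 3 ringed genes, *Pcdh17*, *Pcdh7* and *Pcdh10*, are all non-clustered, and the points of the beta genes lie between -0.17 and 0.29.

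Levels can be compared between genes only after division by exon length, and on this scale (mean value per kb of exon over all 8 libraries) *Pcdhgc3* led with 35.6. *Pcdh18* followed with 11.2, *Pcdh9* with 4.99, *Pcdhgb6* with 4.32, *Pcdhgc4* with 4.09 and *Pcdh7* with 2.87. *Pcdh10* reached 1.76 per kb and *Pcdh17* 1.39. Gamma genes had a median of 1.35 per kb, beta genes of 1.15, non-clustered genes of 1.53 and alpha genes of 0.0627. The highest levels were thus shared between the gamma cluster and the non-clustered genes, and alpha genes were low apart from the C-type gene *Pcdhac2*, at 0.692. In the annotation, 27.8 to 66.8% of a gamma gene's exon length and 28.5 to 54.9% of an alpha gene's is shared with other protocadherins, because of the constant exons. How reads in those exons were assigned is not given in the sources used here, so levels of single alpha and gamma genes are uncertain. Beta genes share at most 9.70% and non-clustered genes 0%.

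The alpha cluster was represented by *Pcdhac2*, which supplied 58.6 to 74.4% of the summed alpha value. Its values were 4.63, 4.02, 4.00 and 3.45 in control and 2.75, 4.33, 4.58 and 4.82 in *Osr2-Cre;Ezh2fl/fl* libraries. The groups overlapped, and the log2 fold change was 0.01 (SE 0.15, adjusted p = 0.989 in limma), with a sign that changed with the scaling between libraries (-0.01 with median-of-ratios scaling). The other 8 alpha genes were below the filter. *Pcdha11* had 0.393, 0.607, 0.449 and 0.749 in control and 0.443, 1.27, 0.407 and 0.722 in *Osr2-Cre;Ezh2fl/fl* libraries. *Pcdha9* had 0.704, 0.562, 0.392 and 0.442 in control and 0.112, 0.778, 0.477 and 0.155 in *Osr2-Cre;Ezh2fl/fl* libraries. In both genes the groups overlapped, and they rested on at most 83 estimated reads in a library. *Pcdha1* and *Pcdha2* had 3 or fewer estimated reads in 4 libraries and *Pcdha8* in 5, so that a difference was not detectable at this depth. The summed alpha value was 6.65 ± 0.547 in control and 6.30 ± 1.37 in *Osr2-Cre;Ezh2fl/fl* libraries (SD, n = 4 each). *Pcdha3*, *Pcdha6*, *Pcdha7*, *Pcdhac1* and *Pcdhb1* were not analysed here.

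Beta genes were expressed at moderate levels, from 0.337 to 2.57 per kb, and none passed the test between the groups. Of 20 tested, 10 had a positive and 10 a negative log2 fold change, between -0.17 and 0.29 with a median of -0.01. The smallest p was 0.177 unadjusted and 0.644 adjusted in limma. *Pcdhb19*, the beta gene with the highest value, had 16.1, 13.1, 14.2 and 11.1 in control and 11.3, 14.5, 12.6 and 11.96 in *Osr2-Cre;Ezh2fl/fl* libraries (log2 fold change -0.10, SE 0.12). *Pcdhb22* had 12.1, 15.1, 12.9 and 11.6 in control and 10.3, 15.4, 12.3 and 10.3 in *Osr2-Cre;Ezh2fl/fl* libraries (log2 fold change -0.10, SE 0.14). *Pcdhb17* had 11.5, 11.4, 10.1 and 11.0 in control and 11.8, 13.8, 10.7 and 10.5 in *Osr2-Cre;Ezh2fl/fl* libraries (log2 fold change 0.08, SE 0.10). In all 3 genes the groups overlapped, and the highest *Osr2-Cre;Ezh2fl/fl* value was that of library 2. *Pcdhb2* was below the filter, with values of 0.572 to 1.64. The summed beta value was 122 ± 6.67 in control and 123 ± 20.1 in *Osr2-Cre;Ezh2fl/fl* libraries (SD, n = 4 each).

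The gamma cluster carried the largest summed value of the 3 clusters, 359 ± 14.1 in control and 366 ± 50.9 in *Osr2-Cre;Ezh2fl/fl* libraries (SD, n = 4 each). All 22 gamma genes were tested, 14 with a positive and 8 with a negative log2 fold change, between -0.14 and 0.39 with a median of 0.07. The smallest p, that of *Pcdhga8*, was 0.132 unadjusted and 0.573 adjusted in limma. *Pcdhgc3*, a C-type gene, alone supplied 46.4 to 58.3% of the gamma sum and 34.8 to 43.0% of the sum over all clustered genes. Its values were 211, 217, 200.4 and 180.1 in control and 148, 223, 181 and 207 in *Osr2-Cre;Ezh2fl/fl* libraries, and the log2 fold change was -0.10 (SE 0.12, adjusted p = 0.841 in limma). The groups overlapped, and *Osr2-Cre;Ezh2fl/fl* libraries 1 and 2 were the lowest and the highest of all. *Pcdhgb6* had 21.4, 21.3, 21.7 and 15.6 in control and 13.6, 27.4, 14.9 and 26.0 in *Osr2-Cre;Ezh2fl/fl* libraries, with a log2 fold change of -0.02 (SE 0.23). The controls were close together apart from library 4, while the *Osr2-Cre;Ezh2fl/fl* libraries lay on both sides of them.

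Gamma genes varied more between *Osr2-Cre;Ezh2fl/fl* libraries than between controls, in a pattern that most of them shared. *Osr2-Cre;Ezh2fl/fl* library 2 was the highest of its group in 20 of 22 gamma genes and in 16 of 20 beta genes, and library 1 was the lowest in 20 of 22 and in 14 of 20. Library 2 lay above all 4 controls in 20 of 22 gamma genes (90.9%), 14 of 20 beta genes, 1 of 11 non-clustered genes and 31.2% of all genes tested. Library 1 lay below all 4 controls in 18 of 22 gamma genes (81.8%), 12 of 20 beta genes, 9 of 11 non-clustered genes (81.8%) and 24.3% of all genes, so its low position was not particular to the clusters. The median ratio of library 2 to library 1 was 1.93 over gamma genes, 1.47 over beta genes, 1.30 over non-clustered genes and 0.981 over all genes. The SD of log2(value + 1) was larger in the *Osr2-Cre;Ezh2fl/fl* group for 21 of 22 gamma genes (95.5%) and 17 of 20 beta genes (85.0%), against 74.5% of all genes. Its median was 0.15 in control and 0.39 in *Osr2-Cre;Ezh2fl/fl* libraries over gamma genes, 0.15 and 0.20 over beta genes, and 0.11 and 0.18 over all genes, so that beta genes were close to the whole table in this respect. The shared direction is a description of these libraries: gamma genes share exons, and the libraries were singled out after their values were seen. Depth was 48.3 M estimated reads in library 1 and 60.3 M in library 2. There the median gamma gene deviated by -0.42 and 0.44 from the mean of the *Osr2-Cre;Ezh2fl/fl* libraries. In controls 1 and 2, depth was 50.4 and 66.8 M and the median gamma deviation from the control mean was 0.07 and 0.08. The cause of the shared pattern was not tested. With *Osr2-Cre;Ezh2fl/fl* libraries 1 and 2 left out together, 0 clustered genes had an unadjusted p under 0.05 in limma, and of the non-clustered genes *Pcdh10* (log2 fold change 1.22), *Pcdh17* (-0.78) and *Pcdh7* (-0.59) kept an unadjusted p under 0.05 and lost the adjusted call (adjusted p = 0.0653, 0.107 and 0.109).

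**Figure D3:**
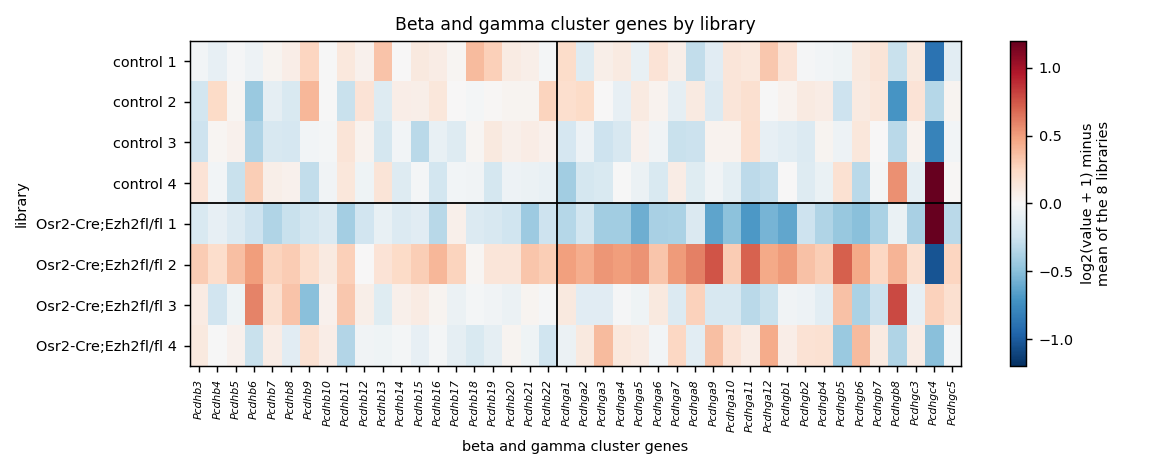
Deviation of log2(value + 1) from the mean of the 8 libraries for the 20 beta genes (left of the line) and 22 gamma genes (right) tested, with a line between control and *Osr2-Cre;Ezh2fl/fl* libraries; red is higher, blue is lower, and values past the ends of the scale take the end colour. *Osr2-Cre;Ezh2fl/fl* library 1 is blue and library 2 red over most gamma genes, and *Pcdhgc4* runs the other way. Measured instead from the mean of the *Osr2-Cre;Ezh2fl/fl* libraries alone, the median gamma deviation was -0.42 in library 1 and 0.44 in library 2.

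*Pcdhgc4*, a C-type gene needed for the survival of neurons, did not follow the other gamma genes. Its values were 8.54, 12.9, 9.13 and 40.7 in control and 72.4, 7.61, 20.3 and 11.4 in *Osr2-Cre;Ezh2fl/fl* libraries. It was highest in *Osr2-Cre;Ezh2fl/fl* library 1 and lowest in library 2, the reverse of the order of most gamma genes, and in the control group it was highest in library 4. The highest value was 9.52 times the lowest, the widest range of the gamma genes, whose median was 2.08 times. *Pcdhgc4* supplied between 1.76 and 22.6% of the gamma sum, and its log2 fold change was 0.39 (SE 0.67, adjusted p = 0.8995 in limma), so no difference between the groups could be seen. Without *Pcdhgc3* and *Pcdhgc4*, the summed gamma value was 139 ± 8.11 in control and 148 ± 43.6 in *Osr2-Cre;Ezh2fl/fl* libraries (SD, n = 4 each), from 99.0 in library 1 to 202 in library 2 of the latter.

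**Figure D4:**
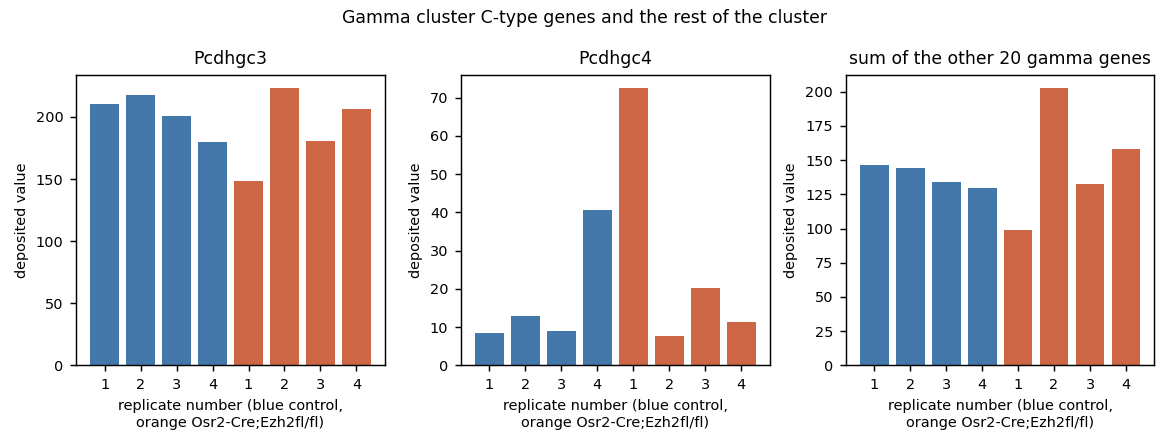
Deposited value of *Pcdhgc3* (left), *Pcdhgc4* (middle) and the sum of the other 20 gamma genes (right) in each library, control in blue and *Osr2-Cre;Ezh2fl/fl* in orange, with bars from 0 and a scale of its own in each panel. *Pcdhgc4* reaches 72.4 in *Osr2-Cre;Ezh2fl/fl* library 1, where the sum of the other 20 genes is at its lowest, 99.0.

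Genes that act on or beside protocadherins were counted from 3 lists. None of 20 regulators of the clusters, among them *Ctcf* (-0.02), the cohesin subunits, the DNA methyltransferases and *Smchd1*, had an unadjusted p under 0.05 in limma, and their log2 fold changes lay between -0.20 and 0.07 with a median of -0.05. Of 19 cytoplasmic partners, 2 had an unadjusted p under 0.05 upward and 1 downward, where 8.27% and 4.87% of all genes had it, and none passed after adjustment. The 3 of 19 are a share near the 13.1% of all genes in either direction. These were *Ptk2b* (0.33), a focal adhesion kinase that clustered protocadherins bind, *Ret* (0.37), a receptor kinase that phosphorylates them, and *Cyfip2* (-0.32), a subunit of the WAVE complex. Of 14 giant and seven-pass cadherins and related genes, 12 were tested, with a median log2 fold change of -0.30 where all genes had 0.01. Of these, 3 had an unadjusted p under 0.05, all downward, where 4.87% of all genes had it, and none an adjusted one: the giant cadherin *Fat2* (-0.57), the planar polarity cadherin *Celsr2* (-0.51) and *Fjx1* (-0.35), a relative of the Drosophila kinase four-jointed. *Fat2* had 31.4, 30.4, 46.5 and 50.7 in control and 22.5, 21.8, 36.9 and 24.2 in *Osr2-Cre;Ezh2fl/fl* libraries. It was thus highest within each group in the libraries where *Amelx* was highest (controls 3 and 4 and *Osr2-Cre;Ezh2fl/fl* library 3), and so were *Celsr2*, *Celsr1*, *Dchs2* and *Clstn2*, of which the last 3 were singled out after their values were seen. *Fjx1* was not, with 71.1, 73.7, 67.1 and 61.4 in control and 67.0, 45.8, 47.9 and 55.6 in *Osr2-Cre;Ezh2fl/fl* libraries, and neither were *Fat1*, *Fat3*, *Fat4*, *Dchs1*, *Clstn1* and *Clstn3*. The part of epithelial RNA in these values was not tested.

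The markers of other cells gave the following counts beside these results. Of the 8 dental mesenchyme markers, 4 had an unadjusted p under 0.05 upward (*Msx1* 0.27, *Prrx1* 0.50, *Twist1* 0.32 and *Runx2* 0.41), where 8.27% of all genes had it. The other 4 did not, with log2 fold changes of 0.42 for *Postn*, -0.30 for *Col1a2*, -0.22 for *Col1a1* and -0.07 for *Pdgfra*. Of the 3 odontoblast markers, 2 had an unadjusted p under 0.05 downward (*Dspp* -1.13 and *Phex* -0.98), where 4.87% of all genes had it. Odontoblast sums ran from 1524 to 3013 in control and from 671 to 2466 in *Osr2-Cre;Ezh2fl/fl* libraries. Of the 7 epithelial markers, *Epcam* (-0.48) had an unadjusted p under 0.05, where 4.87% of all genes had it downward. With the mean level of the enamel transcripts as a covariate the log2 fold change was 0.90 for *Pcdh10* (adjusted p = 0.0542), -0.52 for *Pcdh7* (0.0858) and -0.87 for *Pcdh17* (0.0130) in limma. Of the 6 Schwann cell markers, 5 were tested and *Erbb3* was downregulated (log2 fold change -0.42, adjusted p = 0.0388 in limma). Schwann cell sums were 221 to 317 in control and 291 to 344 in *Osr2-Cre;Ezh2fl/fl* libraries, and *Sox10* was near the floor (mean 0.616 and 0.416). None of the 5 macrophage markers, the 4 neuronal markers tested or the 2 skeletal muscle markers tested had an unadjusted p under 0.05 in limma. Over all 5 neuronal markers measured, sums were 95.1 to 153 in control and 95.8 to 114 in *Osr2-Cre;Ezh2fl/fl* libraries, and over all 4 skeletal muscle markers measured they were 4.73 to 21.9 and 1.73 to 7.73. Macrophage sums were 96.6 to 155 and 117 to 143. The markers *Elavl3* and *Myod1* were not analysed here. The part of these cells in the protocadherin values was not tested. The endothelial and enamel covariates are marker levels and do not measure it.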

How the data were processed

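RNA was measured in 8 libraries of molar mesenchyme, grouped by the sample labels as 4 control and 4 *Osr2-Cre;Ezh2fl/fl*. The labels do not say whether each library came from separate animals, so p-values measure the spread between these libraries. The paper's methods describe single-end reads, trimming, TopHat and RPKM on the mm10 genome, and the submitters' processing notes name CASAVA 1.8.2, STAR 2.5.3a and Partek. The values the authors deposited were treated as a signal, not as RPKM or counts: they carry no gene-length factor, the 75th percentile is about 38.5 in every library, and of the values less than 20 times the minimum of a library, 58.0 to 63.2% are whole multiples of that minimum (tolerance 0.02). Estimated reads are the value over that minimum, minus 1, and cover counting error only. The floor was set at 3 reads. No count test was run, except limma's voom on estimated reads as an alternative.

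Groups were compared with limma 3.58.1 under R 4.3.3 (lmFit, eBayes with a trend, two-sided) on log2(value + 1) over 14854 of 20926 genes, with Benjamini-Hochberg adjustment over all of them and an adjusted p under 0.05 as the threshold. For single genes, all 70 arrangements of the libraries were also enumerated in an exact permutation test. The replicate numbers shared by the groups were checked and not taken as pairs; the paper's methods give 4 samples per group and also mention 3 pairs, without saying which libraries they are. Members were all genes with a symbol beginning with Pcdh. Named with every library's value were members with an unadjusted p under 0.05 and the 3 with the highest mean value in each class, and members of the gene lists were named where the unadjusted p was under 0.05. The members and lists were chosen with earlier results of these data known. Gene lengths, coordinates and overlaps came from GENCODE mouse release M21 on GRCm38 (the build of mm10), matched by symbol in Python 3.11.15 (pandas 2.3.3; matplotlib 3.10.9 for plots). There were 0 further per-sample columns. Alternatives were pseudocounts of 0.1 and 5, no filter, a filter at a value of 10, log2 without pseudocount or filter, voom, other scalings and moderation, the replicate block, *Xist* or enamel transcripts as a covariate, and each library left out. The endothelial covariate, gamma sums without C-type genes and leaving out *Osr2-Cre;Ezh2fl/fl* libraries 1 and 2 together were added after the data were seen. No promoter of a clustered gene is printed.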

Additional observations from a re-analysis of the deposited data

Results flagged for a closer look

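Among the 16 named genes and the 4 class sums, 40 groups of 4 libraries were examined for a library far from the other three, and 2 were found, as many as the 1 in 20 that chance gives. *Pcdhgb6* had a value of 15.6 in the fourth control, while the other controls had 21.3 to 21.7. *Pcdh18* had a value of 73.7 in *Osr2-Cre;Ezh2fl/fl* library 3, against 47.3 to 50.3 in the other libraries of its group. The cause was not tested.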

How the results depend on the processing

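The 3 adjusted calls lay close to the threshold. Their number was 1 with no filter and 1 with a filter at a value of 10 (*Pcdh10* in both), 1 with the enamel covariate (*Pcdh17*), 0 with the endothelial covariate, 0 with *Osr2-Cre;Ezh2fl/fl* libraries 1 and 2 left out, 0 to 2 with a single library left out, and 2 or 3 in the other alternatives apart from the replicate block. The block gave 0 adjusted calls and 4 at an unadjusted p under 0.05, against 5 without it (adjusted p = 0.137 for *Pcdh10*, 0.136 for *Pcdh17* and 0.224 for *Pcdh7*), and over all genes it called 0.491% in place of 2.07%. The labels give the numbers to both groups, but same-numbered libraries did not deviate together (correlations of -0.34, -0.08, 0.22 and -0.43), and 1 of 4 controls and 0 of 4 *Osr2-Cre;Ezh2fl/fl* libraries correlated best with their own number. The numbers were therefore not taken as pairs, though the study's methods also speak of 3 pairs of samples. The number at an unadjusted p under 0.05 was 3 with the endothelial covariate, 4 to 6 with a single library left out and 4 to 7 otherwise. In limma, clustered genes reached it in a few settings: *Pcdha12* without pseudocount or filter and with voom, *Pcdhb9* and *Pcdhgb8* with the enamel covariate, *Pcdhb18* with the endothelial covariate, *Pcdhgb8* without control library 4 and *Pcdhb7* without *Osr2-Cre;Ezh2fl/fl* library 1. *Pcdh10*, *Pcdh17*, *Pcdh7*, *Pcdh1* and *Pcdh15* kept their direction in every alternative run. Over the 15 alternatives other than those that leave out a single library, the adjusted call held in 11 for *Pcdh10*, 7 for *Pcdh17* and 6 for *Pcdh7*. The log2 fold change of *Pcdhac2* turned to -0.0148 with median-of-ratios scaling, -0.0420 with quantile normalization, -0.0114 with the *Xist* covariate, -0.0340 with the enamel covariate and -0.35 with the endothelial covariate. With *Osr2-Cre;Ezh2fl/fl* libraries 1 and 2 left out, that of *Pcdh9* was 0.11 and that of *Pcdhb17* -0.0476. When single libraries were left out, the sign turned within ranges of -0.13 to 0.15 for *Pcdh9*, -0.0239 to 0.205 for *Pcdha11*, -0.0580 to 0.154 for *Pcdhac2*, -0.18 to 0.14 for *Pcdhgb6*, -0.187 to 0.00790 for *Pcdhgc3* and -0.22 to 0.87 for *Pcdhgc4*. The difference between the groups in a class sum moved by less than the pooled SD of the libraries in every alternative run; for the gamma sum it was 6.98, 19.4 without *Pcdhgc3* and -3.15 without *Pcdhgc4*. Except where fewer genes or libraries entered, the cause was not tested. Depth limits *Pcdha1*, *Pcdha2* and *Pcdha8*, which had 3 or fewer estimated reads in 4, 4 and 5 libraries.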
